A study of Mus musculus with 2 samples.

Results

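The EGF receptor family and its ligands were followed in cerebellar tumors of mice. The 10 genes were listed by name and not by a cutoff on a value. They are the receptors *Egfr*, *Erbb2*, *Erbb3* and *Erbb4*, and the ligands *Areg*, *Ereg*, *Hbegf*, *Tgfa*, *Btc* and *Nrg1*. All 10 were among the 19465 genes of the count tables. The data are 2 sections, 1 per mouse, each 5 µm thick and cut from formalin-fixed, paraffin-embedded cerebellum, read with the Visium CytAssist assay, which hybridizes probes to mouse transcripts, captures them on barcoded spots and counts unique molecules (UMIs). Both mice had received HP organoids grown from mouse mammary tumors with the alleles HER2 V777L and PIK3CA H1047R, and neither was treated. The HER2 transgene is a human sequence behind an actin promoter and a Lox-STOP-Lox cassette that Cre opens. The paper describes organoid donors and hosts as B6 mice. The methods give an age of 5 months for the injected mice, and the injected cells were luciferase-labeled and selected as clones. In the titles the organoid of section 1 is HP-F1 and that of section 2 is HP-B6, with the genotype HP on both. Section, mouse and organoid name thus change together, and their parts in a difference between sections cannot be told apart. There is 1 condition, so the regions of a section are compared. Since the probes are directed at mouse transcripts, the *Erbb2* values count mouse *Erbb2*, and whether these probes also read the human transgene was not tested.

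The family works as paired receptors. A ligand held on the cell surface is cut free by a sheddase, binds its receptor on the same or a neighboring cell, and the receptor then pairs with another member and starts the RAS and MAP kinase cascade and PI3 kinase. *Erbb2* encodes the member without a known ligand of its own, which acts as a partner, and *Erbb3* encodes the member with a weak kinase, which signals through its partners. *Areg*, *Ereg*, *Hbegf*, *Tgfa* and *Btc* encode ligands of EGFR, some of which also bind ErbB4, whereas *Nrg1* encodes a ligand of ErbB3 and ErbB4. In the brain, ERBB4 is known from neurons and ERBB3 from oligodendrocytes, and in breast cancer ERBB2 is the amplified oncogene HER2.

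The promoters of *Egfr*, *Erbb2* and *Erbb4* are shown because these receptors passed the test of tumor against neural tissue below. That of *Areg* is shown because it held 3 of the motifs below. RefSeq tables on GRCm38.p6 held a promoter for 6 of the 10 genes, not including *Ereg* and *Nrg1*, which passed that test too. The 250 bases before the start listed in that table are given 5′ to 3′ on the strand of the gene, with capitals for matched motifs: *Egfr* at chr11:16751953-16752202 (plus strand), *Erbb2* at chr11:98412234-98412483 (plus strand), *Erbb4* at chr1:69108060-69108309 (minus strand) and *Areg* at chr5:91139349-91139598 (plus strand).
Egfr: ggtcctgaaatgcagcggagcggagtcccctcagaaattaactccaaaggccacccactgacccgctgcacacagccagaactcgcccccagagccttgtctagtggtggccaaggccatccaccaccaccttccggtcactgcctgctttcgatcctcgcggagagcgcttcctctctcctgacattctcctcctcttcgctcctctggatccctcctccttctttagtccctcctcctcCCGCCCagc
Erbb2: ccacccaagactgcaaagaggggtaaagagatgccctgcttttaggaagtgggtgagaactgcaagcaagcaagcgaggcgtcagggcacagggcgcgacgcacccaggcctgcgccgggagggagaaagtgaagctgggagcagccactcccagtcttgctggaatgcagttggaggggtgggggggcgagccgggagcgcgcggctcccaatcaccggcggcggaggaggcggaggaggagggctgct
Erbb4: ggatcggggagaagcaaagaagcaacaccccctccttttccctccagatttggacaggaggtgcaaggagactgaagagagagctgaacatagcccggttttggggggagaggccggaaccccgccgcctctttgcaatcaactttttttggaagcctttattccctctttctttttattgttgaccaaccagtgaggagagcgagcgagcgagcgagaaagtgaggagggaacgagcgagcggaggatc
Areg: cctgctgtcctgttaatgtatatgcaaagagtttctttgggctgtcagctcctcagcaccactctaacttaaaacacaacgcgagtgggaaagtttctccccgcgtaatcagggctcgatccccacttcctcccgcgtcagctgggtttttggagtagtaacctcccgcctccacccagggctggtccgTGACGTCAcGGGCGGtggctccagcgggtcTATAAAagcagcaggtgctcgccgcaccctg

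Motifs were searched on both strands as plain letters: a cAMP response element (TGACGTCA), an AP-1 site (TGANTCA), an AP-2 site (GCCNNNGGC), a GC box (GGGCGG) and a TATA box (TATAAA). The *Areg* promoter held a cAMP response element 61 bases, a GC box 52 bases and a TATA box 31 bases before the start. *Egfr* held 1 GC box, on the reverse strand, 9 bases before its start, and *Erbb2*, *Erbb4* and *Btc* held none of the 5 motifs. The *Tgfa* window held AP-2 sites 64 and 13 bases and GC boxes 126 and 15 bases before its start, the last of them on the reverse strand and overlapping the AP-2 site. Of 18502 promoters of the same length, 2.03% held the cAMP response element, 6.17% the AP-1 site, 17.2% the AP-2 site, 45.8% the GC box and 10.7% the TATA box. The RefSeq gene table of the same build sets the ends of *Erbb4* and *Tgfa* further out: it ends *Erbb4* at 69108576 and begins *Tgfa* at 86195038, so the window of *Erbb4* lies inside that span and the window of *Tgfa* reaches into it. A match is a match of letters, and nothing about binding was measured. *Ereg* (start 91074617, end 91093649), *Areg* (91139599 to 91148432) and *Btc* (91357261 to 91402994) are neighbors on mouse chromosome 5.

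Each spot was placed by the share of UMIs from 27 neural marker genes, summed over the spot and its neighbors (up to 6). The border is therefore smoothed over adjoining spots. The largest group of adjoining spots below a share of 0.525% was taken as the tumor mass (772 spots in section 1, 800 in section 2). In section 2 a second such group, of 75 spots, was left outside the regions. Neural spots beside that group were placed only by their distance from the main mass. Spots of the mass 3 or more spot steps from neural tissue form the tumor region, those 1 or 2 steps away the tumor-side edge, neural spots 1 or 2 steps from the mass the neural-side edge, and all further neural spots the neural region. After spots with few UMIs and those outside the regions were left out, 3310 of 3406 spots under tissue remained in section 1 and 3858 of 4017 in section 2, and the 8 sums over section and region held 2378922 to 36048306 UMIs. Median UMIs per spot were 56991 and 42613 in the tumor region and 7691 and 9916 in the neural region of sections 1 and 2. The same 3096 spot barcodes occur in both sections, since both arrays use the same barcode list. A spot can hold several cells, so fewer cells of a type and less RNA per cell cannot be told apart.

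**Figure D1:**
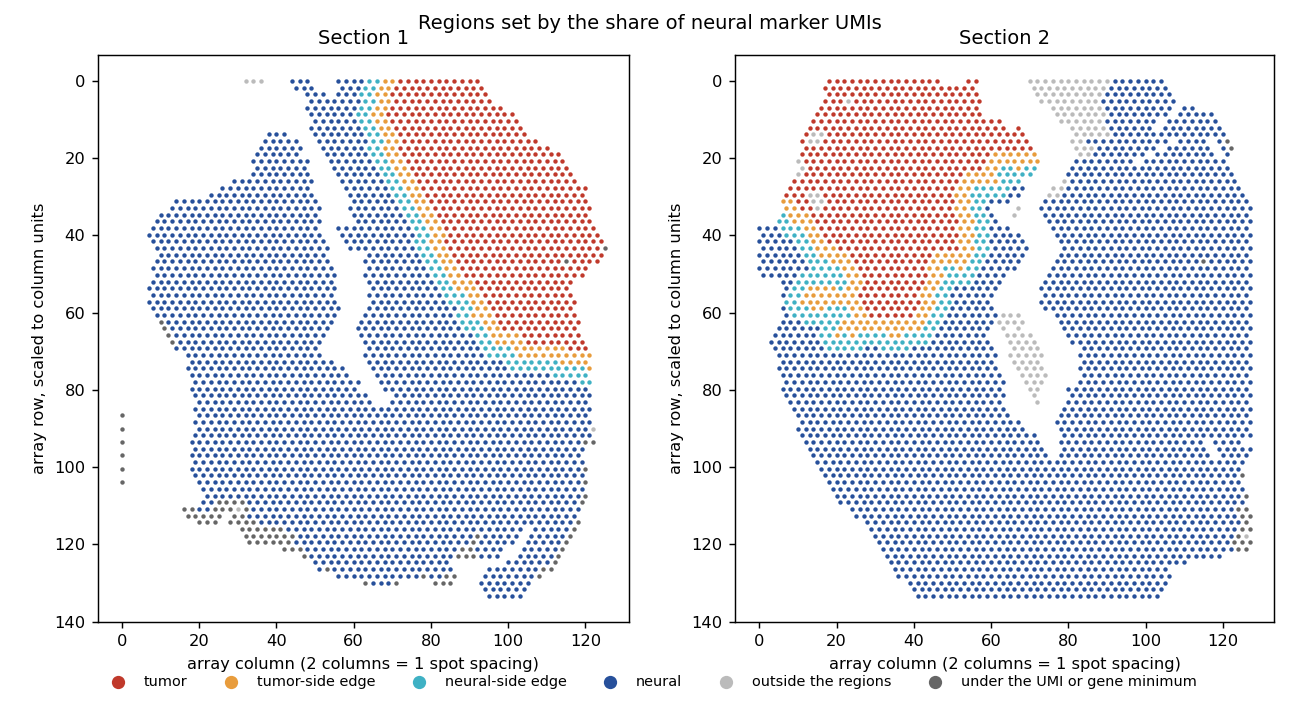
Position of each spot on the array in both sections (axes in array units), colored by region; grey spots lie outside the regions or under the minimum of UMIs and genes. The mass used held 772 spots in section 1 and 800 in section 2, with a 2-step band on each side of its border. A second neural-poor group of 75 spots in section 2 lies outside the regions.

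The masses of the sections were of different composition, and by epithelial markers that of section 1 goes against the label of a breast tumor. Its region keeps the name tumor here, and which cells held its collagen RNA was not tested. Summed over 10 epithelial markers, the tumor region held 11347 CPM (UMIs of the gene per 1000000 UMIs of the region) in section 2 and 49.0 in section 1. The neural region held 428 CPM of them in section 2 and 30.1 in section 1. At 13 or more steps outside the mass of section 2 the sum was still 240 CPM. Neural levels of section 2 thus include spots with epithelial RNA, and its part in them was not tested. None of the 10 epithelial markers was at 0 in section 1, and the highest there, *Krt8*, stood at 23.4 CPM against 1594 in section 2. Summed over 7 fibroblast markers (*Col1a1*, *Col1a2* and others), the order was turned, with 56649 CPM in section 1 and 641 in section 2. Macrophage markers, also 7, summed to 4738 and 1463 CPM in the tumor region of sections 1 and 2, and this sum was highest in the neural-side edge, at 6827 and 5770. The single markers did not all follow the sum in section 1. There *Csf1r* (423 against 250 CPM), *Adgre1* (55.6 against 31.9) and *Lyz2* (17.1 against 15.1) were higher in tumor than in the neural-side edge. *Cd68*, *C1qa*, *C1qb* and *Arg1* were lower. Values of each gene are therefore given by section, and the part of these cell types in them was not tested.

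Levels of single genes by region are below given as CPM scaled by TMM, and are compared between regions and sections for 1 gene at a time. Sums of markers and levels by steps or tiles are plain CPM. Fold changes on the log2 scale come from edgeR's quasi-likelihood test over all 19111 genes that passed a filter on low counts, with the section as a block and Benjamini-Hochberg adjustment. All 10 genes passed the filter. Within-section log2 fold changes add 0.5 CPM to each level and carry no test. The spread rests on 2 mice.

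In the tumor region, *Egfr*, *Erbb2* and *Ereg* were higher than in the neural region and *Erbb4* and *Nrg1* lower, at an adjusted p below 0.05, in the same direction in both sections. These were 5 of the 10 genes, where 36% of all genes tested were called in this comparison (18% higher, 17.9% lower). The remaining 5, *Erbb3*, *Areg*, *Hbegf*, *Tgfa* and *Btc*, did not pass the test. Of these, *Erbb3*, *Hbegf*, *Tgfa* and *Btc* had log2 fold changes of opposite sign in the sections, though *Tgfa* in section 2 was near 0, at 0.08. The share of all genes with opposite signs at any size was not counted. For *Erbb3* and *Btc* both went beyond 1, which 0.978% of all genes did. Scaled by library size alone, the genes called split into 2246 higher and 5444 lower in place of 3448 and 3429, and the median over all genes tested was -0.46 on the log2 scale in place of -0.13.

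**Figure D2:**
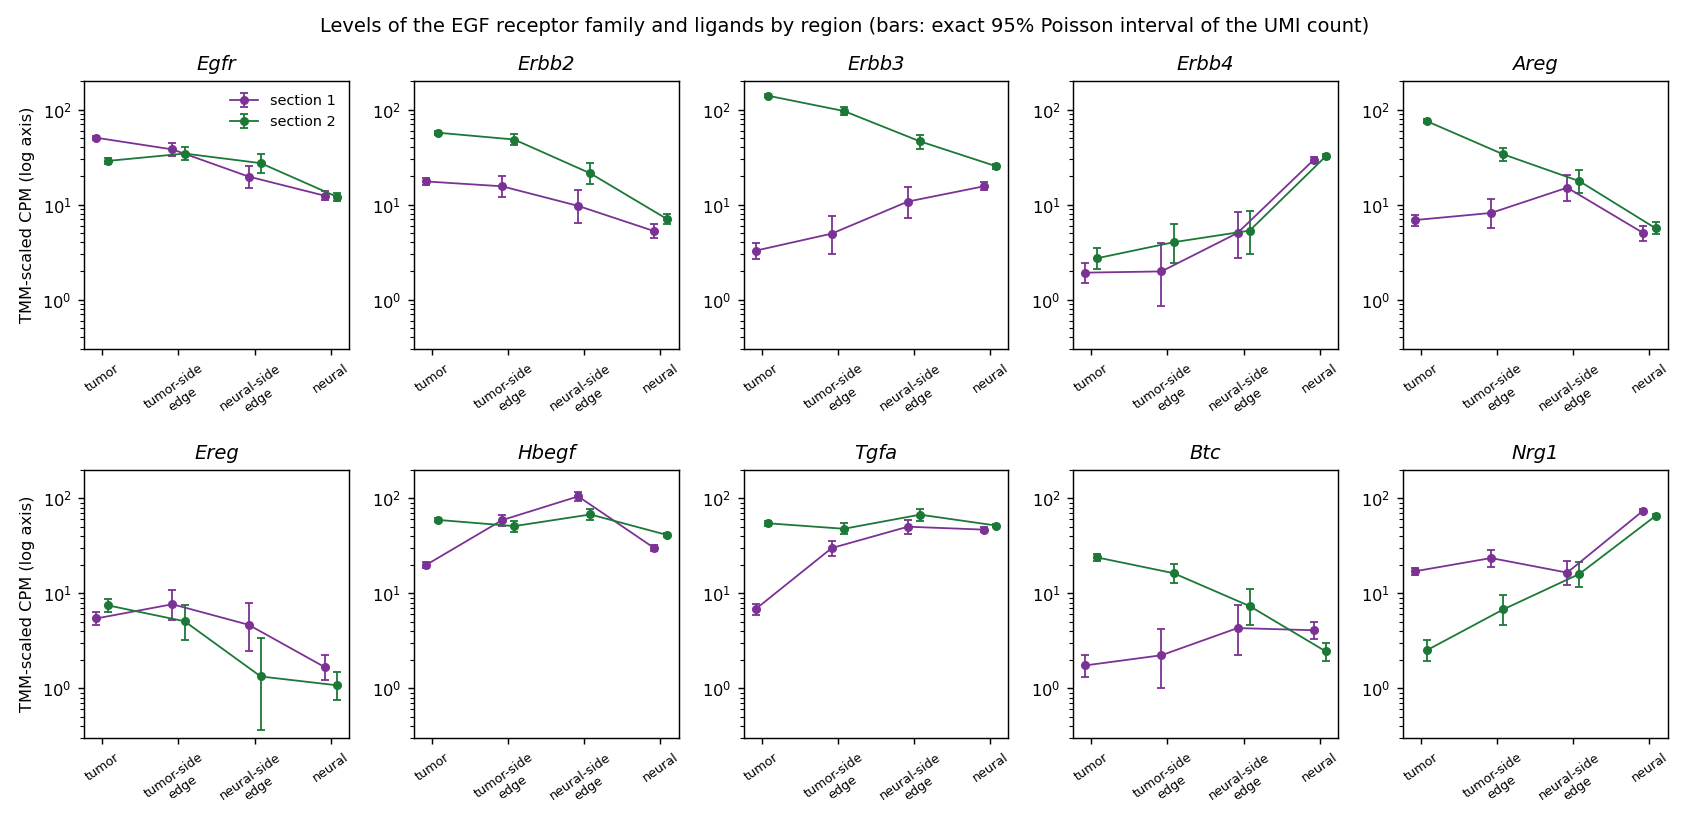
TMM-scaled CPM (log axis) of the 10 genes in the 4 regions of each section, with exact 95% Poisson intervals of the UMI count as bars, which cover counting error only. *Erbb4* and *Nrg1* were highest in the neural region of both sections, while *Erbb3* ran in opposite directions, from 3.27 in tumor to 15.6 in neural spots in section 1 and from 140 to 25.3 in section 2.

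*Egfr*, the receptor for most of the ligands measured here, stood in section 1 at 50.6 CPM in tumor, 38.1 in the tumor-side edge, 19.7 in the neural-side edge and 12.4 in neural spots. In section 2 the same regions held 28.9, 34.5, 27.3 and 12.1 CPM. In both sections the neural region was lowest, and only in section 1 was the tumor region highest. *Egfr* was 3.20-fold higher in tumor than in neural spots (log2 fold change 1.68, SE 0.32, edgeR adjusted p = 0.0096), with 1.98 and 1.22 on the log2 scale within sections 1 and 2. At the edge, taken as the mean of its 2 sides, it was 2.39-fold higher than in neural spots (log2 1.26, SE 0.29, edgeR adjusted p = 0.023), a call that was lost with the neural region limited to spots within 12 steps of the mass (0.89, adjusted p = 0.088). The neural region of section 2 held 0.97 times the *Egfr* level of section 1, whereas in tumor section 1 held 1.75 times the level of section 2.

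*Erbb2*, the mouse gene for the partner receptor HER2, was lower with each region from mass to neural tissue in both sections. Its levels were 17.5, 15.6, 9.69 and 5.25 CPM from tumor through the 2 edges to neural spots in section 1, and 57.1, 48.4, 21.3 and 7.10 CPM in section 2. Both regions of the mass lay above the neural region of their section. *Erbb2* was 5.10-fold higher in tumor than in neural spots (log2 2.35, SE 0.37, edgeR adjusted p = 0.0048), with 1.65 and 2.92 on the log2 scale within sections 1 and 2, and without the section as a block the value was 2.59 with an adjusted p of 0.054. At the edge it was 3.18-fold higher than in neural spots (log2 1.67, SE 0.34, edgeR adjusted p = 0.015), and this call was lost without the block (adjusted p = 0.13) and with the threshold of the neural share at 1.5 times its value (adjusted p = 0.059). The tumor region of section 2 held 3.26 times the level of section 1.

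*Erbb3*, the receptor with the weak kinase, showed the widest gap between the masses. In section 1 it went from 3.27 CPM in tumor (95% Poisson interval 2.69 to 3.95) through 4.95 and 10.8 to 15.6 in neural spots. In section 2 it went from 140 in tumor (136 to 145) through 96.7 and 46.3 to 25.3. The order of the 4 regions was thus exactly turned, and the tumor regions differed 42.8-fold while the neural regions differed 1.62-fold. The fit over both sections gave a log2 fold change of 0.12 for tumor against neural with an SE of 1.19 (edgeR adjusted p = 0.94), which describes neither section, where the values were -2.09 and 2.45. Epithelial markers stood at 49.0 and 11347 CPM in the same tumor regions, and at 30.1 and 428 CPM in the neural regions.

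*Erbb4*, a receptor for neuregulins, had the largest fold difference of the 10 genes between the regions in this fit. Levels were 1.92, 1.98, 5.03 and 29.6 CPM from tumor to neural spots in section 1 and 2.73, 4.02, 5.33 and 32.3 CPM in section 2. The neural region stood far above the rest in both, and its levels differed 1.09-fold between sections. *Erbb4* was 13.5-fold lower in tumor than in neural spots (log2 -3.75, SE 0.33, edgeR adjusted p = 7.6e-04) and 7.94-fold lower at the edge (log2 -2.99, SE 0.27, edgeR adjusted p = 0.0014). Within sections 1 and 2 the log2 values were -3.63 and -3.34 for tumor and -3.02 and -2.68 for the edge. With the neural region limited to spots within 12 steps of the mass they were -2.95 and -2.19 over both sections, and both calls held (edgeR adjusted p = 0.0019 and 0.0073). The 5 neuron markers summed to 55.7 and 68.7 CPM in tumor and to 2360 and 2625 CPM in neural spots of sections 1 and 2. All 5 are among the 27 genes that set the regions, so this contrast follows from the rule and is no separate evidence.

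Among the ligands, *Areg*, which encodes amphiregulin, stood high in the mass of section 2 and low in that of section 1. Its levels in section 2 were 75.3 CPM in tumor, 33.8 and 17.7 in the edges and 5.64 in neural spots. In section 1 they were 6.88, 8.17, 15.1 and 5.02 CPM, with the highest value in the neural-side edge. The tumor regions differed 10.95-fold between sections and the neural regions 1.12-fold. Over both sections *Areg* had a log2 fold change of 2.29 with an SE of 0.88 in tumor against neural spots and was not called by edgeR (adjusted p = 0.094), with 0.42 and 3.63 within sections 1 and 2, whereas DESeq2 gave 2.44 with an adjusted p of 0.011.

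*Ereg*, which encodes epiregulin, was scarce, and lowest in the neural region of both sections. In section 1 it stood at 5.44, 7.68, 4.67 and 1.67 CPM from tumor to neural spots, and in section 2 at 7.45, 5.08, 1.33 and 1.08 CPM. In tumor these were 181 and 180 UMIs, and in the neural-side edge of section 2 only 4. *Ereg* was 4.91-fold higher in tumor than in neural spots (log2 2.29, SE 0.47, edgeR adjusted p = 0.013) and 3.13-fold higher at the edge (log2 1.65, SE 0.46, edgeR adjusted p = 0.044). Within sections 1 and 2 the log2 values were 1.45 and 2.33 for tumor and 1.58 and 1.02 for the edge. In the fit with no block (adjusted p = 0.074) the edge call was lost, as it was with library size scaling, with an edge of 3 steps, with a threshold of the neural share at 1.5 times its value, and with neural spots within 12 steps of the mass.

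*Hbegf*, which encodes a heparin-binding ligand of EGFR and ErbB4, was highest in the neural-side edge of both sections. Levels were 19.9, 58.9, 105 and 29.9 CPM from tumor to neural spots in section 1 and 59.2, 51.0, 67.6 and 41.3 CPM in section 2. The highest region held 5.28 times the lowest in section 1 and 1.64 times in section 2. In tumor against neural spots the log2 fold change was 0.10 (SE 0.51, edgeR adjusted p = 0.89), from -0.58 and 0.52 within sections 1 and 2. At the edge it was 0.99 (SE 0.46, edgeR adjusted p = 0.17), with 1.38 and 0.50 within the sections, so that the test was not passed although both sections had the same sign.

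*Tgfa*, which encodes transforming growth factor alpha, was at 6.82 CPM in tumor of section 1, against 30.0 and 50.3 in the edges and 46.8 in neural spots. In section 2 the regions lay closer together, at 54.6, 47.8, 67.3 and 51.7 CPM. Tumor of section 1 was the lowest of the 8 values, and tumor of section 2 held 8.01 times as much. The test over both sections gave a log2 fold change of -1.09 with an SE of 0.70 (edgeR adjusted p = 0.26), within sections -2.69 and 0.08.

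*Btc*, which encodes betacellulin, had opposite signs in the sections, as *Erbb3* did. It held 1.74, 2.23, 4.31 and 4.09 CPM from tumor to neural spots in section 1 and 23.8, 16.3, 7.33 and 2.44 CPM in section 2. The tumor regions differed 13.7-fold. Log2 fold changes of tumor against neural spots were -1.03 and 3.05 within sections 1 and 2, and 0.98 with an SE of 1.14 in the fit (edgeR adjusted p = 0.52).

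*Nrg1*, the ligand of ErbB3 and ErbB4, was highest in the neural region, as was *Erbb4*. Its levels were 17.1, 23.5, 16.5 and 74.4 CPM from tumor to neural spots in section 1 and 2.52, 6.77, 15.99 and 65.3 CPM in section 2. Of the 6 ligands it was the 1 with more in the tumor region of section 1 than of section 2, by 6.76-fold. *Nrg1* was 9.59-fold lower in tumor than in neural spots (log2 -3.26, SE 0.73, edgeR adjusted p = 0.018), with -2.09 and -4.44 within the sections, and 4.94-fold lower at the edge (log2 -2.31, SE 0.56, edgeR adjusted p = 0.030). When the neural region was limited to spots within 12 steps of the mass, the log2 values were -1.98 and -1.02 and neither passed the test (edgeR adjusted p = 0.090 and 0.30). Without the block the adjusted p values were 0.080 and 0.10.

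**Figure D3:**
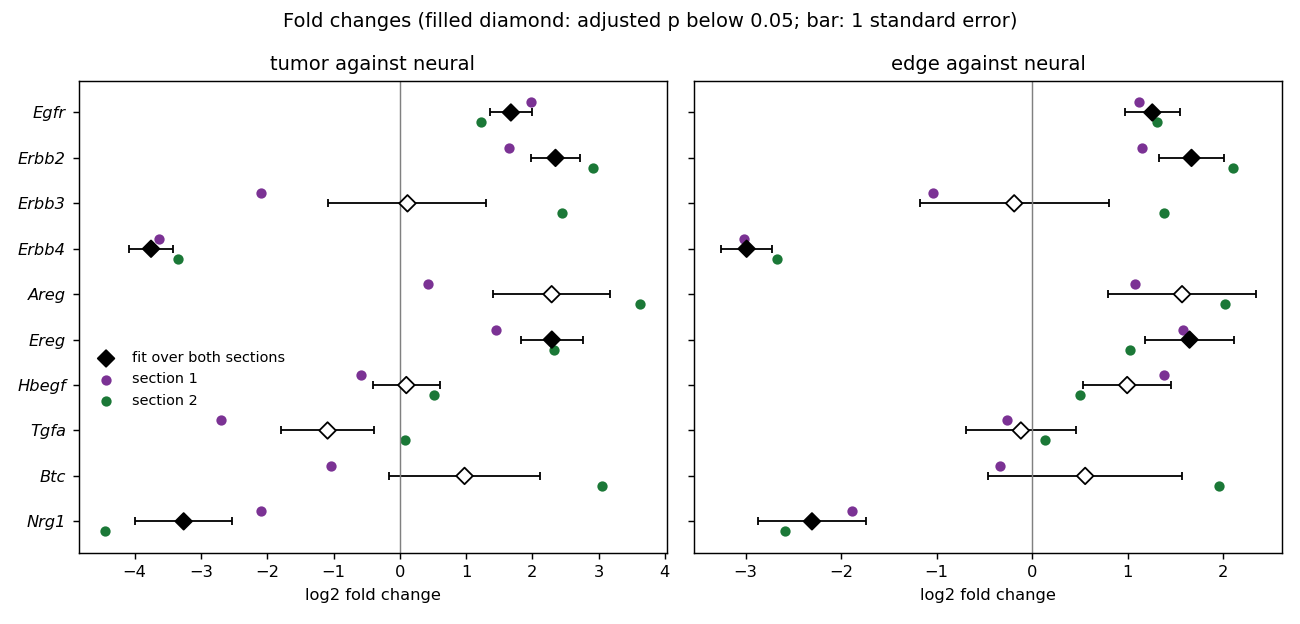
Log2 fold changes of the 10 genes for tumor against neural spots (left) and edge against neural spots (right): diamonds with 1 standard error for the fit over both sections, filled at an adjusted p below 0.05, and points for each section. *Egfr*, *Erbb2*, *Ereg*, *Erbb4* and *Nrg1* are filled in both panels, and the points of *Erbb3* lie on opposite sides of 0, at -2.09 and 2.45 for tumor.

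At the edge, *Egfr*, *Erbb2* and *Ereg* were higher and *Erbb4* and *Nrg1* lower than in neural spots, again 5 of 10, where 28.1% of all genes tested were called (13.7% higher, 14.4% lower). Both comparisons share the neural region. Scaled by library size alone, the split of all called genes was 1991 higher and 3615 lower in place of 2609 and 2758. Between tumor and edge none of the 10 was called by edgeR, where 2.95% of all genes were (0.147% higher, 2.8% lower). At an unadjusted p below 0.05, edgeR passed 1 of the 10, *Erbb4*, with a log2 fold change of -0.76, where 16.1% of all genes tested were below it.

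By steps from the border of the mass, the ligands peaked at different places. Here levels are plain CPM over spots at the same number of steps. *Hbegf* in section 1 stood at 17.4 CPM 9 or more steps inside, reached 134 (95% Poisson interval 112 to 157) 2 steps outside and was back at 21.4 from 13 steps outward. In section 2 it was 50.7 deep inside and highest, at 83.2 (72.0 to 95.6), 6 to 8 steps outside. This interval overlapped those at 1 step (58.0 to 82.6), 3 to 5 steps (57.3 to 77.1) and 9 to 12 steps outside (61.3 to 81.0). It did not overlap that at 2 steps outside (43.6 to 69.8). *Tgfa* in section 1 went from 5.37 deep inside to 85.6 at 3 to 5 steps outside and 46.7 far out, and in section 2 stayed between 37.3 and 72.9. So in section 1 both ligands were highest in neural tissue just beyond the mass. The sum of the 7 macrophage markers had its peak at the same border, 6884 CPM 2 steps outside in section 1 and 5857 CPM 1 step outside in section 2. In section 2 this sum was down to 2878 CPM at 6 to 8 steps outside, where *Hbegf* had its highest value, not set apart from most nearby steps. Endothelium markers were also highest at an edge, 362 CPM in the tumor-side edge of section 1 and 352 in the neural-side edge of section 2. Neural spots held 149 and 152 CPM of them. The part of these cell types in the ligand values was not tested.

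*Areg* peaked at 90.7 CPM 6 to 8 steps inside the mass of section 2, and at 21.6 CPM (13.7 to 32.5) 2 steps outside that of section 1. *Egfr* ranged outward from 54.2 CPM 9 or more steps inside to 11.99 CPM 13 or more steps outside in section 1, and in section 2 was highest 2 steps inside the border, at 34.2. *Erbb3* in section 2 was at 128 CPM 6 to 8 steps inside and reached 25.5 at 9 to 12 steps outside. In section 1 it was highest, at 23.7, 3 to 5 steps outside. *Erbb4* and *Nrg1* ran the other way. From 13 steps outward they reached 44.0 and 117 CPM in section 1 and 38.5 and 82.3 in section 2, the highest of their profiles, and *Nrg1* at 9 to 12 steps outside was still at 54.7 and 32.7.

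**Figure D4:**
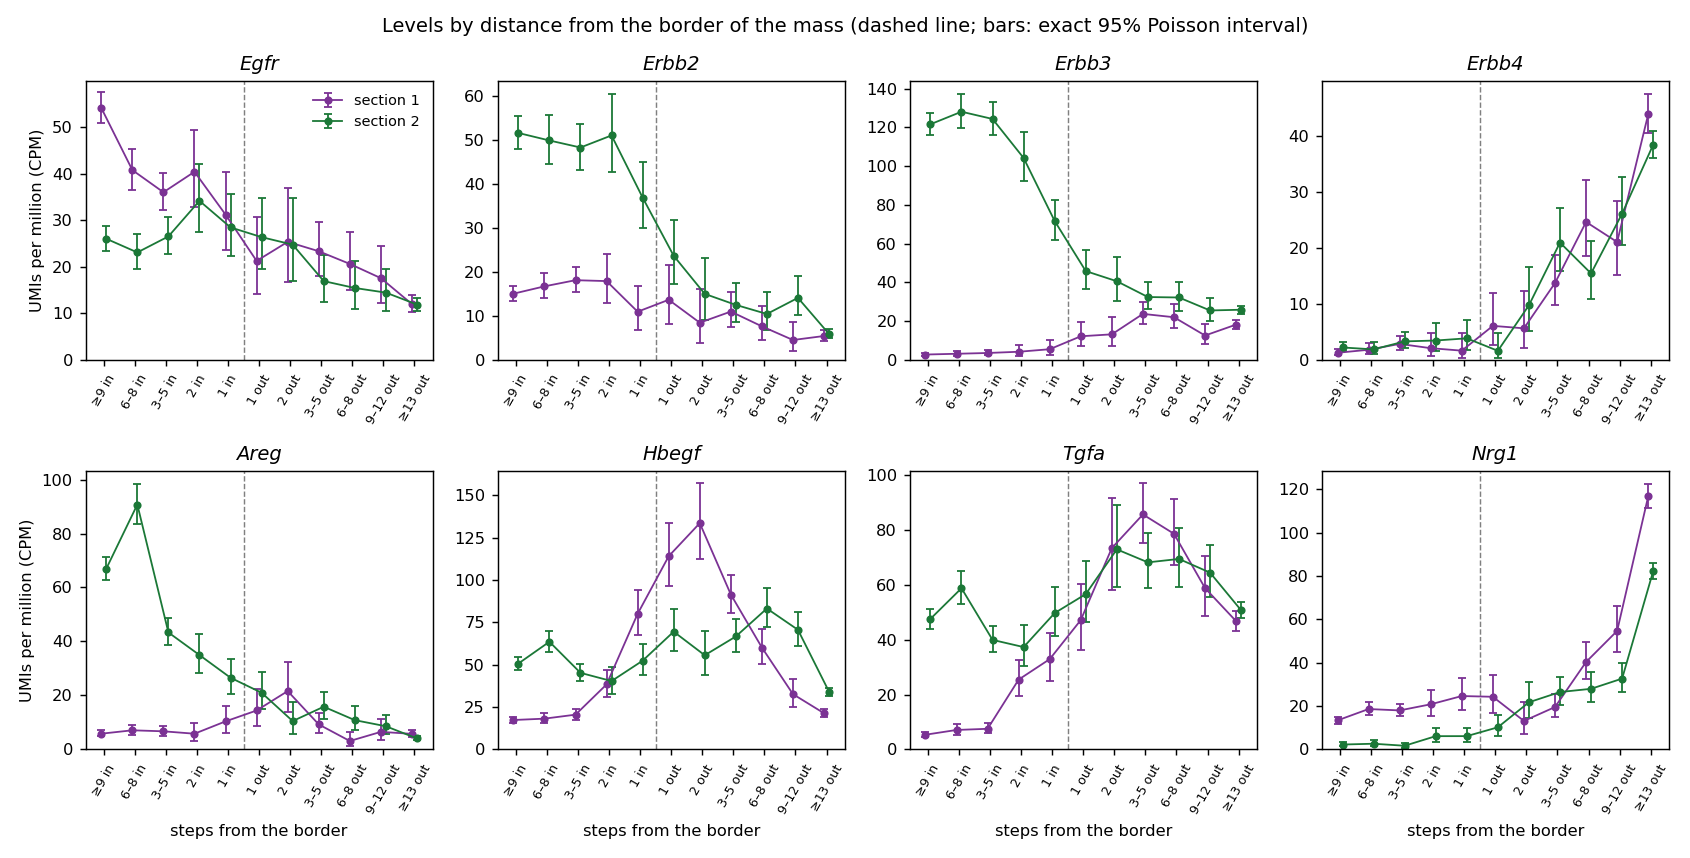
CPM of 8 genes by steps from the border of the mass (dashed line; left inside, right outside) in each section, with exact 95% Poisson intervals. *Hbegf* of section 1 peaks 2 steps outside at 134, *Areg* of section 2 peaks 6 to 8 steps inside at 90.7, and *Erbb4* and *Nrg1* are highest 13 or more steps outside in both sections.

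Within the neural region, levels varied from place to place. Over tiles of 8 array rows by 16 array columns (50 tiles in section 1, 57 in section 2), *Nrg1* had a median of 80.2 and 69.1 CPM and reached 217 and 229 CPM. *Erbb3* reached 67.1 and 69.6 CPM from medians of 15.5 and 24.7. Pearson's r of log2(CPM + 1) with summed cell type markers is given as a description, since the tiles share a library, their depth and their place. *Erbb3* followed oligodendrocyte markers, at r = 0.49 and 0.52 in sections 1 and 2, and so did *Nrg1* (0.64 and 0.56) and *Tgfa* (0.58 and 0.48). None of the 3 followed that list alone. *Erbb3* had 0.006 and 0.58 with choroid plexus markers, and *Tgfa* 0.42 and 0.50 with macrophage markers. *Nrg1* had 0.50 and 0.06 with neuron markers and -0.13 and 0.45 with choroid plexus markers. *Erbb4* followed neuron markers, at 0.46 and 0.55. *Hbegf* ran against oligodendrocyte markers (-0.53 and -0.52) and neuron markers (-0.31 and -0.61). It ran with macrophage markers (0.41 and 0.60), but not with these alone. It had 0.31 and 0.53 with endothelium markers and 0.39 and 0.29 with microglia markers. *Egfr* and *Erbb2* stayed between -0.44 and 0.37 with each of the 7 lists.

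Ligand and receptor were also counted in the same spot. After each spot was thinned to 5000 UMIs, leaving out 655 and 358 shallower neural spots, 9 and 2 tumor spots, and 0 and 18 edge spots of sections 1 and 2, *Nrg1* was read in 33.2% and 28.6% of neural spots and *Erbb4* in 17.0% and 15.7%. Both were read in 6.90% (exact binomial 95% interval 5.77 to 8.19) and 5.33% (4.48 to 6.27) of neural spots, against 5.65% and 4.47% for the product of the shares. Without thinning it was 13.9% and 15.2% against 10.1% and 12.5%, with *Nrg1* in 41.9% and 42.1% and *Erbb4* in 24.1% and 29.6% of neural spots. Thinned to 2500 UMIs, the ratio of observed share to product was 0.686 (0.440 to 1.02) in place of 1.22 in section 1, on the other side of 1, and 1.25 (0.936 to 1.63) in place of 1.19 in section 2. In tumor spots *Erbb4* was read in 0.459% and 1.40%.

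*Erbb3* was read in 45.9% of tumor spots of section 2 and 1.68% of those of section 1, and *Erbb2* in 24.5% and 10.1%. Both were in the same tumor spot in 11.9% (9.46 to 14.6) in section 2, against a product of 11.2%, and without thinning in 80.7% against 78.8%. *Egfr* was read in 20.9% and 13.4% of tumor spots of sections 1 and 2. Its ligand *Hbegf* was read in 8.72% and 20.6% of tumor spots, 33.3% and 23.7% of edge spots and 12.5% and 17.4% of neural spots. Without thinning, *Egfr* was in 89.7% and 63.3% of tumor spots, *Erbb3* in 15.1% and 95.02%, *Erbb2* in 55.4% and 82.9%, and *Hbegf* in 60.3% and 81.0%. *Hbegf* was then in 80.9% and 63.0% of edge spots and 21.3% and 32.1% of neural spots, so that in section 2 tumor and edge stood in the opposite order to the thinned shares. Of 10 pairs in 2 sections and 3 regions, 18 of 60 had an expected count of 10 or more spots, and their ratio of observed to product ran from 0.489 to 1.22. Only *Erbb4* with *Nrg1* in neural spots had an interval above 1, in both sections (1.02 to 1.45 and 1.002 to 1.40). The product takes each share as even over the neural region, but both genes were highest in its outermost spots. A gradient shared by 2 genes puts the ratio above 1, so the ratio cannot tell it from detection together in single spots. At 2500 UMIs the interval included 1 in both sections. The thinning was drawn at random and not repeated. Unthinned spots differ in depth, which alone can raise a ratio. Without thinning, other pairs in neural spots also had intervals above 1 in both sections. *Egfr* with *Hbegf* then had ratios of 1.58 (1.28 to 1.92) and 1.38 (1.18 to 1.60), against 1.19 and 0.991 when thinned. These intervals take the shares of the single genes as known and the spots of a section as independent, and none of the 18 lay below 1. Free RNA can give UMIs in spots of other cells, and no region is known to lack these genes.

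Genes most like each receptor in place were ranked over 137 tiles (65 and 72) by Pearson's r of log2(CPM + 1), centered by section, among 10857 genes at 10 CPM or more in each section. *Erbb4* came closest to its leaders, *Tmem59l*, *Tro* and *Chn1*, each at r = 0.90. *Egfr* was most like *Frmd6* (0.75), *Ppic* (0.72) and *Dok1* (0.71), and *Erbb2* most like *H3f3b* (0.78), *Vsig10* (0.77) and *Ptprj* (0.77). For *Erbb3* they were *Slc12a2* (0.74), *Itgb4* (0.73), which encodes an integrin of epithelial cells, and *Mmp15* (0.72). Within sections 1 and 2 the values were 0.71 and 0.78 for *Slc12a2*, 0.58 and 0.88 for *Itgb4*, and 0.61 and 0.84 for *Mmp15*. Among the family, *Erbb2* and *Areg* had r = 0.66 and 0.73 in sections 1 and 2, and *Erbb4* and *Nrg1* 0.62 and 0.72. *Erbb2* and *Erbb3* were at -0.42 in section 1 and 0.62 in section 2. The neighbors *Areg*, *Ereg* and *Btc* were alike in section 2 (*Areg* with *Ereg* 0.75, *Areg* with *Btc* 0.75, *Ereg* with *Btc* 0.64) and less so in section 1 (0.39, 0.14 and -0.16). The values of section 2 do not single out the neighbors. There *Erbb2*, on chromosome 11, had 0.73, 0.64 and 0.61 with *Areg*, *Ereg* and *Btc*.

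The other genes of the pathway are given for tumor against neural spots, where 18% of all genes tested were higher and 17.9% lower, with a median of -0.13 on the log2 scale. Of 5 other ligands, none was higher and 3 were lower, with a median of -1.14. *Nrg3*, a neuregulin of neurons, fell by 3.29 on the log2 scale (SE 0.30, edgeR adjusted p = 8.6e-04), from 20.5 and 19.9 CPM in neural spots to 2.28 and 1.86 in tumor of sections 1 and 2, and *Nrg4* fell by 1.58. Of 9 sheddases and their partners, 6 were higher and none lower, with a median of 1.21. *Rhbdf2*, a partner of the sheddase ADAM17, went from 9.14 and 10.97 CPM in neural spots to 33.6 and 122 CPM in tumor (log2 2.69, SE 0.40, edgeR adjusted p = 0.0042). *Adam12* rose by 2.22, from 8.99 and 11.4 to 88.5 and 24.8 CPM. *Adam17* itself, which encodes a sheddase of several EGFR ligands, was at 41.3 and 44.8 CPM in neural spots and 174 and 118 CPM in tumor (log2 1.74), and is named here after its values were seen.

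Of 18 adaptors, RAS and MAP kinases, 3 were higher and 2 lower, with a median of 0.14. *Shc1*, the adaptor that docks on the receptors, rose by 2.20 (36.2 and 40.0 CPM in neural spots, 202 and 149 in tumor), and *Nras* by 1.62. *Braf* fell by 2.23, from 27.3 and 27.2 to 5.77 and 5.83 CPM, and *Araf* by 0.85. Of 16 inhibitors of receptors and pathway, 6 were higher and none lower, with a median of 0.22. *Spry1*, a feedback inhibitor of the cascade, rose by 2.25 (27.7 and 42.2 CPM in neural spots, 94.4 and 296 in tumor) and *Cblb*, a ubiquitin ligase, by 1.51. *Errfi1*, which binds and holds back EGFR, was the 1 gene of the lists called between tumor and edge and is named for that (log2 0.87, SE 0.15, edgeR adjusted p = 0.039), where 2.95% of all genes were called. With the threshold of the neural share at 0.5 times its value edgeR called 0 genes in that comparison (1475 at an unadjusted p below 0.05, and 1711 by DESeq2 in the regions used here). Of 12 targets of ERK measured, 7 were higher and none lower, with a median of 1.75. *Myc* rose by 2.78 (14.0 and 22.5 CPM in neural spots, 61.6 and 240 in tumor) and *Ccnd1*, which encodes cyclin D1, by 2.34 (94.6 and 129 CPM, 481 and 654).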

How the data were processed

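Counts of UMIs per gene and spot were deposited by the authors without normalization, made with Space Ranger 2.1.1 on mm10, per the labels. The probe panel's version is not given in the sources used here. Spots under tissue with 500 or more UMIs and 10 or more genes were used. Regions were set by Otsu's threshold on the share of neural markers, which gave 8 libraries of summed UMIs (TMM factors 0.883 to 1.21). The test was edgeR 4.0.16 in R 4.3.3 (filterByExpr, glmQLFit robust, glmQLFTest), on 4 regions in 1 fit with 3 residual degrees of freedom. The section was a block, because its regions share 1 mouse. As a check, the common dispersion was 0.0805 with and 0.177 without it. Calls are at an adjusted p below 0.05. DESeq2 1.42.0 was an alternative, and the test was tested on simulated data. The genes and lists were chosen with earlier results of these data known. Named genes are the 10 of the family, the 2 called genes of each pathway list with the largest change in each direction and the same sign in both sections, and the 3 genes most like each receptor. Depth makes counting error small for all but scarce genes, and the number of mice, 2, sets the precision. Intervals and shares were computed in Python 3.11.15 with scipy 1.17.1.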

Additional observations from a re-analysis of the deposited data

How the results depend on the processing

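Without the section as a block, 3933, 3080 and 340 genes were called for tumor against neural, edge against neural and tumor against edge, and 3 and 2 genes of the family in the first and second, where 20.6% and 16.1% of all genes were called. That fit turned 1 sign, edge against neural for *Erbb3* (0.90), and ended the calls of *Erbb2* and *Nrg1* in both comparisons and of *Ereg* at the edge. At the edge, 3 genes of the family (and 23.4% of all genes) were called with the threshold of the neural share at 1.5 times its value and 2 (with 2831 of all genes, 15.8%) with neural spots within 12 steps of the mass, an alternative chosen after seeing the data. The cause was not tested. For tumor against edge, 1711 genes were called by DESeq2, 0 by edgeR at a threshold of 0.5 times (1475 at an unadjusted p below 0.05) and 1544 at 1.5 times.

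Signs turned for tumor against neural in *Erbb3* (-0.18 with library size as the only scaling, -0.16 at 0.5 times the threshold) and *Hbegf* (-0.20, -0.11, and -0.69 within 12 steps), and at the edge in *Tgfa* (0.17 at 1.5 times), none of which was called. The edge call of *Ereg* was also lost with library size (adjusted p = 0.074), an edge of 3 steps (0.073), 1.5 times the threshold (0.12) and within 12 steps (0.14), and that of *Egfr* within 12 steps (0.088). Leaving out a section gives the value within the other, from 1.22 to 1.98 for *Egfr* and from 1.65 to 2.92 for *Erbb2* in tumor against neural. Thinned to 2500 UMIs, ratios in neural spots were 0.614 (0.265 to 1.21) and 1.31 (0.736 to 2.16) for *Egfr* with *Tgfa*. They were 0.686 for *Erbb4* with *Nrg1* in section 1 and 1.49 (0.405 to 3.80) for *Erbb2* with *Erbb3* in section 2. The last rests on 4 spots with both, against 2.69 expected. Spearman's rho was 0.748 for *Egfr* with *Dok1*, 0.799 for *Erbb3* with *Slc12a2*, and 0.829, 0.814 and 0.843 for *Erbb4* with *Tmem59l*, *Tro* and *Chn1*. Depth limits *Ereg* most, with 4 UMIs in 1 region.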
